A study of Mus musculus with 8 samples.

Results

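Potassium channel genes of the mouse lung are described here in fibroblast preparations sorted by CD249. The members are all genes whose symbol starts with Kcn, followed by one or more letters and a digit, which takes 93 of the 25509 mouse genes in the count table. RNA was measured in 8 libraries from 4 wild-type C57Bl6/J mice, numbered 2, 7, 8 and 10. Lung cells without CD45, CD326 and CD31, surface markers of leukocytes, epithelium and endothelium, were flow sorted by their surface CD249, with the same number of CD249- and CD249+ cells taken from each lung. CD249 is glutamyl aminopeptidase, a surface enzyme encoded by Enpep that removes an acidic residue from the end of peptides, angiotensin II among them. No treatment or mutation is named for any library, and the sources used here do not give the age of the mice. The sort defines a fraction by surface proteins and not by a single cell type.

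Potassium channels let potassium leave or enter a cell along its electrochemical gradient and so set the resting membrane potential. Voltage-gated channels open on depolarisation, inward rectifiers and tandem-pore channels carry current at rest, and calcium-activated channels couple the potential to intracellular calcium. Auxiliary subunits form no pore and alter the gating or trafficking of the subunits that do. In lung, these channels are best known from pulmonary arterial smooth muscle, where Kcnk3, Kcna5 and the ATP-sensitive channel of Kcnj8 and Abcc9 help set vascular tone.

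The selectivity filter is the sequence that pore-forming members share and auxiliary members lack, so its coding sequence is shown for genes that the results turn on. A search of the longest coding sequence per gene in GENCODE M21 (GRCm38) looked in frame for 5 codons that encode serine or threonine, then valine, isoleucine or leucine, then glycine, then tyrosine, phenylalanine or leucine, then glycine. It matched 77 of the 93 members (82.8%) and 290 of all 21584 protein-coding genes searched (1.34%). Leucine in the second place was added after a first search without it had matched 70 members (75.3%) and 0.737% of all genes, so these shares describe the pattern and test nothing. Every pore-forming class matched in full, 12 of the 14 tandem-pore genes matched in more than one place, and none of the 12 auxiliary genes and 4 beta subunits of the large-conductance channel matched. Capitals mark the 15 bases of the filter codons, with 12 coding bases on each side, written 5′ to 3′ on the coding strand.
Kcnj8: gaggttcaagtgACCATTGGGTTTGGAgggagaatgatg
Kcnk3, first pore: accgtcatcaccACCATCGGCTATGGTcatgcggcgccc
Kcnk3, second pore: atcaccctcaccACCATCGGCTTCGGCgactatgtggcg
Kcnk13, first pore: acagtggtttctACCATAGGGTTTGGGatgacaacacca
Kcna2: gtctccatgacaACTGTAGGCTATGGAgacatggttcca
Kcns3: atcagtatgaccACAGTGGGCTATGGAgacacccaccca
Kcnh1: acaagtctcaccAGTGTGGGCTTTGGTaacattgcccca
Kcnh2: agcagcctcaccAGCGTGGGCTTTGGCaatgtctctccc

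On GRCm38 the Kcnj8 stretch lies at chr6:142566436-142566474 on the minus strand, in the coding part of exon 3 of 3. The first Kcnk3 stretch is split between exons 1 and 2 (chr5:30588581-30621910, plus strand, intron included), and the second lies in exon 2 at chr5:30622190-30622228. The Kcnk13 stretch is likewise split by an intron, between exons 2 and 3 at chr12:99966262-100061021 on the plus strand. The Kcna2 stretch is at chr3:107105212-107105250 on the plus strand, in exon 3 of 3. That of Kcns3 is at chr12:11091563-11091601 on the minus strand, also in exon 3 of 3. The Kcnh1 stretch is in exon 7 of 11 (chr1:192337742-192337780, plus strand), and that of Kcnh2 in exon 7 of 15 (chr5:24325543-24325581, minus strand).

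Library totals ran from 23011383 to 31906414 counts, with 15456 to 16526 genes and 53 to 64 members detected per library. Enpep rose from 8.98 ± 5.62 to 241 ± 64.8 CPM (SD, n = 4 mice). CPM is the count relative to the library total over the genes tested, scaled by TMM, on the usual per-1000000 scale. Markers of the gated-out cells were present: Pecam1, the endothelial gene for CD31, stood at 1667 ± 248 CPM in CD249- and 611 ± 239 CPM in CD249+ libraries, and Ptprc, which encodes CD45, at 123 ± 58.0 and 63.1 ± 22.8 CPM. Of the marker lists, 12 of 12 endothelial genes fell in CD249+ cells (summed level 13646 to 17894 CPM against 4284 to 8047 CPM), while 11 of 13 pericyte genes rose (595 to 852 against 1280 to 1679 CPM), 10 of 10 smooth muscle genes rose (338 to 974 against 1148 to 2110 CPM) and 11 of 12 alveolar fibroblast genes rose (888 to 1603 against 7506 to 14337 CPM). Rgs5, a defining pericyte gene, stood at 7.10 ± 2.84 and 6.12 ± 1.23 CPM and did not pass the test, and Mcam, another gene of that list that endothelium also expresses, fell from 427 ± 87.9 to 203 ± 60.8 CPM (log2 difference -1.10, adjusted p = 3.75e-05). The CD249+ library of mouse 10 stood apart in lung epithelial RNA, with Sftpc (surfactant protein C) at 7551 CPM against 320 to 781 CPM in the other CD249+ libraries and 58.6 to 448 CPM in CD249- libraries. Of 11 epithelial markers tested, 5 rose and none fell (summed level 179 to 841 against 504 to 10392 CPM), with Nkx2-1 and Foxj1 at 0 in some libraries. The other lists held 3 higher and 3 lower of 11 adventitial fibroblast genes, 8 higher of 8 collagen-type fibroblast genes, 7 lower of 12 leukocyte genes (2178 to 3523 against 1478 to 3691 CPM), 5 lower of 6 mesothelial genes, 8 lower of 10 red cell and platelet genes and 1 lower of 4 nerve genes. For all genes in the same test, 19.3% were called higher and 17.1% lower. The part of these marker differences in the channel results was not tested. In bulk RNA, fewer cells of a type and less RNA per cell cannot be told apart.

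More potassium channel genes were higher than lower in CD249+ cells. Summed over all members, the level was 351, 319, 322 and 374 CPM for CD249- in mice 2, 7, 8 and 10 and 632, 695, 706 and 803 CPM for CD249+, so that every CD249+ library lay above every CD249- library. The sum mostly reflects the abundant members, with Kcne4 alone at 9.54% of it in CD249- and 19.55% in CD249+ cells. Of the 93 members, 74 had at least 1 count, 48 had enough counts to be tested and 19 were at 0 in every library. Among the 48 tested, 19 rose (39.6%), 5 fell (10.4%) and 24 did not pass an adjusted p of 0.05 (edgeR quasi-likelihood test with mouse as a block, adjusted over all 14524 genes tested). Over all genes tested, 36.5% were called, 19.3% higher and 17.1% lower. The median log2 fold change was 1.40 over the tested members and -0.02 over all genes tested. Since the low-count filter keeps a gene that is abundant in either fraction, these counts describe the members that passed it. All 19 that rose did so in 4 of 4 mice and at least 2-fold, from 2.23-fold to 27.9-fold, and all 5 that fell did so in 4 of 4 mice.

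**Figure D1:**
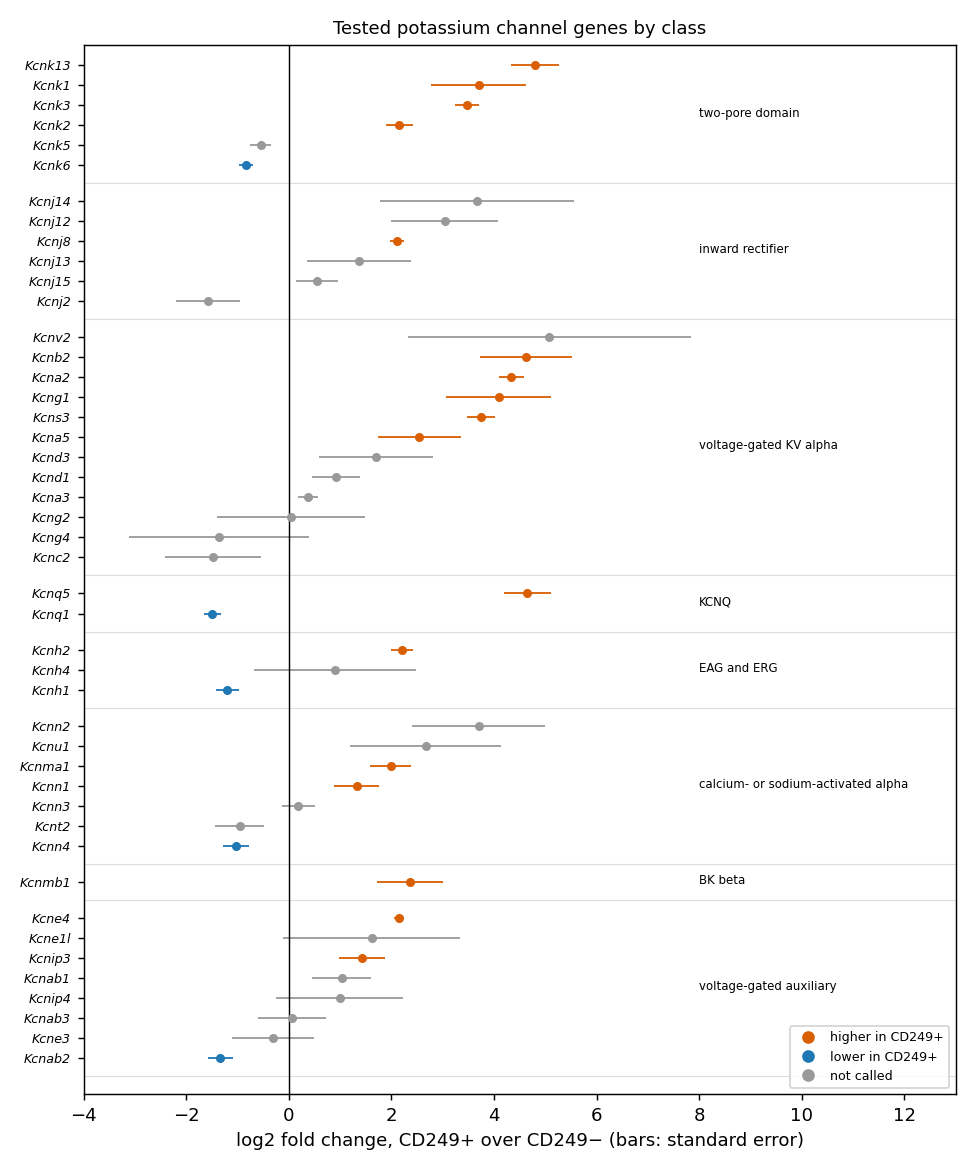
Log2 fold change of CD249+ over CD249- cells for tested potassium channel genes, grouped by class, with bars for the standard error of the fit. Orange marks genes called higher, blue the 5 called lower and grey those not called, whose standard errors run from 0.194 to 2.76.

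The tandem-pore (two-pore domain) genes, whose products carry background potassium current, included the called member with the highest fold, Kcnk13. Of 14 such genes, 6 were tested. Of these, 4 rose, 1 fell and 1 did not pass, beside 19.3% higher and 17.1% lower over all genes tested. Kcnk3, which encodes the acid-sensitive channel TASK-1, stood at 7.90, 5.99, 3.09 and 7.80 CPM in the CD249- fraction and at 71.6, 74.9, 64.2 and 56.6 CPM in the CD249+ fraction, in the mouse order 2, 7, 8 and 10 that is kept throughout. The groups did not overlap, and the log2 difference was 3.48 ± 0.24 (SE, adjusted p = 1.57e-05), or 11.2-fold. Kcnk13, which encodes the halothane-inhibited channel THIK-1, stood at 0.764, 0.806, 0.0417 and 2.25 CPM in CD249- and at 20.2, 18.1, 16.1 and 36.6 CPM in CD249+ cells. In CD249- cells of mouse 8 it was under the level that 3 counts give (0.130 CPM by the unscaled library total). It had the highest CD249+ level in mouse 10. Its log2 difference was 4.80 ± 0.47 (adjusted p = 9.23e-05), or 27.9-fold.

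Kcnk2, which encodes the stretch-activated channel TREK-1, stood at 1.73, 3.36, 1.54 and 4.74 CPM against 10.2, 12.5, 8.14 and 16.7 CPM. Every CD249+ value lay above every CD249- value (log2 difference 2.16 ± 0.26, adjusted p = 0.000283). Kcnk1, which encodes the weakly conducting channel TWIK-1, rose by 3.70 ± 0.93 on the log2 scale (adjusted p = 0.0148), but with 4.18 CPM in the CD249+ library of mouse 10 and 0.889, 0.814 and 0.389 CPM in those of mice 2, 7 and 8. Without mouse 10 the log2 difference of Kcnk1 was 3.69 and its adjusted p was 0.0969, and without mouse 2 its log2 difference was 4.30. In CD249- cells of mice 7 and 8 Kcnk1 lay under the level that 3 counts give, so the size of these differences is uncertain. The CD249+ library of mouse 10 also held the high surfactant RNA, and whether that is related to the rise of Kcnk1 was not tested. Kcnk6 went the other way, at 39.0, 22.6, 31.8 and 36.1 CPM against 24.8, 12.1, 20.7 and 16.0 CPM. The fractions overlapped across mice, while within each mouse the CD249+ value was the lower one (log2 difference -0.84 ± 0.14, adjusted p = 0.00192). Kcnk5, at 38.3, 14.6, 17.4 and 18.5 CPM against 26.7, 6.02, 15.1 and 15.8 CPM, did not pass (log2 difference -0.55, adjusted p = 0.0656).

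Among the inward rectifiers, 6 of 15 genes were tested. Of these, 1 rose and 5 did not pass, beside 19.3% higher over all genes tested. The one that rose was Kcnj8, which encodes the pore of the ATP-sensitive potassium channel of vascular mural cells. It stood at 14.4, 21.8, 22.9 and 30.7 CPM in CD249- and at 69.9, 91.1, 124 and 96.6 CPM in CD249+ cells, with no overlap. The log2 difference was 2.10 ± 0.14 (adjusted p = 1.28e-05), or 4.29-fold. Abcc9, the sulfonylurea receptor that pairs with this pore and also one of the pericyte markers, stood at 27.0, 61.1, 42.1 and 60.8 CPM against 87.6, 122, 192 and 128 CPM. It rose by 1.49 ± 0.19 on the log2 scale (adjusted p = 0.000439), without overlap, and the CD249+ value was highest in mouse 8 for both genes. The other receptor gene, Abcc8, had too few counts to be tested.

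Kcnj2, the classical strong inward rectifier, stood at 5.35, 3.78, 9.51 and 4.47 CPM in the CD249- fraction. Its CD249+ values were 1.38, 0.956, 1.27 and 7.26 CPM, the last from mouse 10. It did not pass with all mice (log2 difference -1.57, adjusted p = 0.0821) and passed without mouse 10 (-2.28, adjusted p = 0.00998). Kcnj15 had its highest value in the same library, with 3.0, 4.96, 5.77 and 19.0 CPM in CD249+ against 3.96 to 5.04 CPM in CD249- cells (adjusted p = 0.326). Kcnj12 lay just outside the threshold with a log2 difference of 3.04 ± 1.04 (adjusted p = 0.0515). Kcnj13 and Kcnj14 did not pass either.

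The voltage-gated alpha subunits of the KV families were the largest class, with 27 genes, of which 14 were tested, 6 rose, none fell and 8 did not pass. Over all genes tested, 19.3% were called higher and 17.1% lower. Kcna2, a delayed rectifier subunit best known from axons, stood at 2.72, 2.98, 1.00 and 3.36 CPM in CD249- and at 48.4, 52.1, 43.4 and 51.5 CPM in CD249+ cells. The CD249+ values were close to each other (48.8 ± 3.98 CPM, SD, n = 4) and all lay above the CD249- values, with a log2 difference of 4.34 ± 0.25 (adjusted p = 6.81e-06), or 20.2-fold. Kcns3 encodes an electrically silent subunit that conducts only in tetramers with subunits of the Kcnb family. It stood at 5.78, 3.47, 6.09 and 2.52 CPM against 59.7, 54.3, 49.6 and 67.8 CPM, without overlap (log2 difference 3.75 ± 0.27, adjusted p = 2.16e-05), or 13.5-fold.

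Kcnb2, a pore subunit that such silent subunits join, was scarce in CD249- cells, at 0.432, 0.0350, 0 and 0.30 CPM, and stood at 5.37, 2.58, 2.62 and 3.32 CPM in CD249+ cells (log2 difference 4.63 ± 0.89, adjusted p = 0.00413). The estimate was 5.22 without mouse 2 and also without mouse 10, 4.26 without mouse 7 and 4.11 without mouse 8. In mice 7 and 8 the CD249- values of Kcnb2 lay under the level that 3 counts give, so the size of the difference is uncertain. Kcng1, another silent partner of the Kcnb subunits, rose from 0.462 ± 0.649 to 4.78 ± 2.93 CPM (log2 difference 4.10 ± 1.02, adjusted p = 0.0145). Leaving out mouse 7, 8 or 10 ended the call for Kcng1, and leaving out mouse 2, whose CD249- library held 1.43 CPM against 0.0834 to 0.245 CPM in the others, gave 5.28. Without the mouse block its log2 difference was 3.35.

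Kcna5, the subunit studied in hypoxic pulmonary vasoconstriction, was low, at 0.748 ± 0.755 CPM in CD249- and 2.85 ± 1.81 CPM in CD249+ cells (SD, n = 4), with overlapping groups. It passed only narrowly (log2 difference 2.54 ± 0.81, adjusted p = 0.0398). The call was lost without the mouse block (log2 difference 1.92, adjusted p = 0.188) and on leaving out any one mouse. Kcna3, a subunit known from lymphocytes and smooth muscle, was the member of its class with the highest CD249- level, at 11.3, 15.4, 22.1 and 14.5 CPM against 21.6, 16.1, 21.3 and 21.3 CPM. Its groups overlapped and it did not pass (log2 difference 0.37, adjusted p = 0.175).

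**Figure D2:**
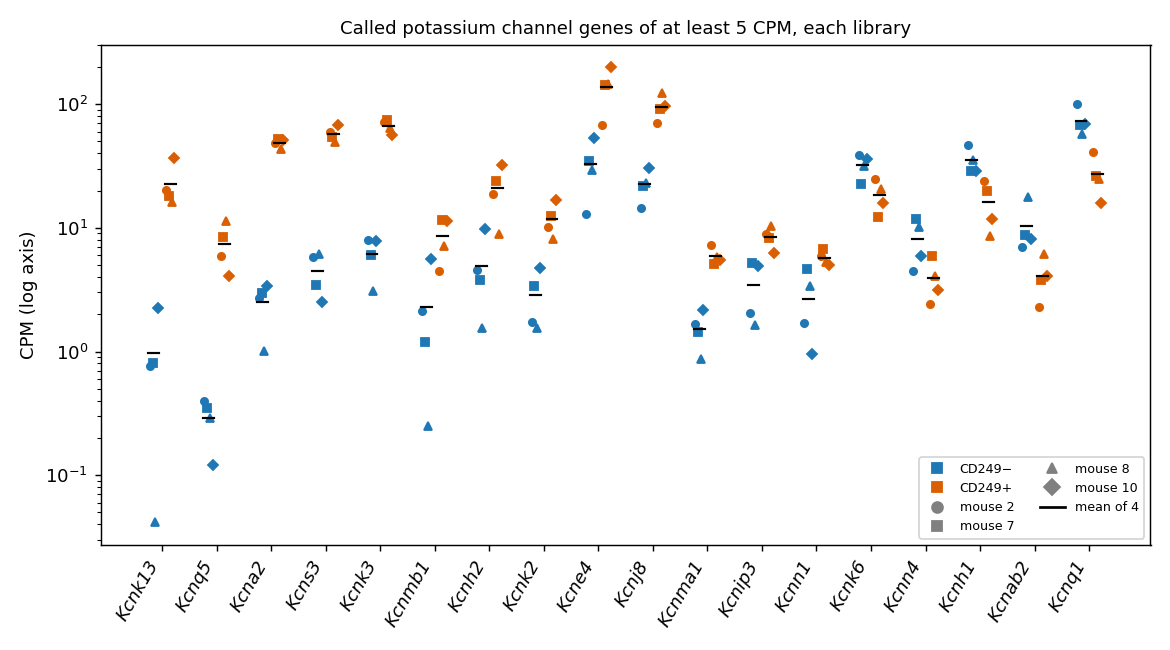
CPM on a log axis of called potassium channel genes with at least 5 CPM in the higher fraction, 1 point per library with the mouse as its shape, CD249- in blue and CD249+ in orange, and a black line at the mean of 4. In Kcna2 the CD249- points sit between 1.00 and 3.36 CPM and the CD249+ points between 43.4 and 52.1 CPM, while in Kcnq1 the CD249- points, from 57.1 to 99.4 CPM, sit above the CD249+ points, from 15.8 to 41.3 CPM.

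The KCNQ genes encode slowly activating, non-inactivating voltage-gated channels, and Kcnq1 and Kcnq5 moved in opposite directions. Kcnq1, the cardiac and epithelial member, had the highest level per exon length of all members in CD249- cells. It stood at 99.4, 68.2, 57.1 and 69.4 CPM there and at 41.3, 26.1, 25.1 and 15.8 CPM in CD249+ cells, without overlap, and fell by 1.49 ± 0.16 on the log2 scale (adjusted p = 0.000168). Kcnq5, known from vascular smooth muscle, rose. It stood at 0.398, 0.350, 0.292 and 0.120 CPM against 5.90, 8.35, 11.4 and 4.08 CPM, without overlap (log2 difference 4.65 ± 0.45, adjusted p = 9.18e-05), or 25.2-fold. The share of the class in the summed channel level was 23.8% in CD249- and 8.14% in CD249+ cells. Its summed mean level was 81.2 CPM in CD249- and 57.7 CPM in CD249+ cells. That of all members was 342 and 709 CPM, so the lower share also reflects the larger total.

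The ether-a-go-go and ERG genes were split too, with 3 of 8 tested. Kcnh1, which encodes the ether-a-go-go channel, fell from 47.2, 29.0, 35.2 and 29.1 CPM to 24.0, 20.0, 8.60 and 11.9 CPM. The fractions did not overlap (log2 difference -1.20 ± 0.23, adjusted p = 0.00377). Kcnh2, which encodes the ERG channel of cardiac repolarisation, rose from 4.55, 3.82, 1.54 and 9.75 CPM to 18.7, 23.8, 8.88 and 31.9 CPM. Mouse 8 was lowest and mouse 10 highest in both fractions, so the groups overlapped, while in each mouse the CD249+ value was the higher one (log2 difference 2.21 ± 0.22, adjusted p = 9.35e-05). Kcnh4 did not pass.

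Of the calcium- or sodium-activated alpha subunits, 7 of 8 were tested. Of these, 2 rose, 1 fell and 4 did not pass, beside 19.3% higher and 17.1% lower over all genes tested. Kcnma1, the pore of the large-conductance (BK) channel, stood at 1.66, 1.44, 0.876 and 2.16 CPM against 7.25, 5.06, 5.77 and 5.45 CPM, without overlap (log2 difference 1.98 ± 0.40, adjusted p = 0.00527). Its smooth muscle beta subunit, Kcnmb1, the only one of 4 beta genes with enough counts to test, stood at 2.13, 1.19, 0.250 and 5.55 CPM against 4.45, 11.5, 7.08 and 11.4 CPM. The groups overlapped (log2 difference 2.36 ± 0.64, adjusted p = 0.0214). The adjusted p of Kcnmb1 was 0.0720 without the mouse block, leaving out mouse 7 also ended the call, and without mouse 8 the log2 difference was 1.74.

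The small-conductance gene Kcnn1 rose (1.69, 4.66, 3.38 and 0.960 CPM against 5.93, 6.76, 5.27 and 5.0 CPM, log2 difference 1.32 ± 0.43, adjusted p = 0.0441), with no overlap. That call was lost without the mouse block (adjusted p = 0.101), with scaling by library size only (0.0568) and on leaving out any one mouse. Kcnn4, the intermediate-conductance channel of blood cells and endothelium, fell from 4.48, 11.7, 10.1 and 5.97 CPM to 2.40, 5.95, 4.10 and 3.15 CPM. The groups overlapped, each mouse was lower in its CD249+ library, and the log2 difference was -1.03 ± 0.26 (adjusted p = 0.0148). Without the block the adjusted p was 0.0700, and leaving out mouse 7 or 8 ended the call. All 12 endothelial markers and 7 of 12 tested leukocyte markers were also lower, as were 17.1% of all genes tested. Whether the fall of Kcnn4 is related to these markers was not tested. Kcnn3, at 4.48 ± 1.5 and 4.88 ± 0.527 CPM, did not pass (log2 difference 0.19, adjusted p = 0.687).

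Auxiliary subunits of voltage-gated channels numbered 12, with 8 tested, 2 higher, 1 lower and 5 not called. The shares called lie close to the 19.3% higher and 17.1% lower over all genes tested. Kcne4, a single-span subunit that inhibits several voltage-gated pores including that of Kcnq1, was the most abundant member in CD249+ cells. It stood at 13.1, 35.0, 29.2 and 53.2 CPM in CD249- and at 67.3, 143, 146 and 198 CPM in CD249+ cells, without overlap. In both fractions mouse 2 was lowest and mouse 10 highest, and the log2 difference of 2.15 ± 0.10 had the smallest adjusted p of all members (2.93e-06). Kcnip3, a calcium-binding protein that acts on Kcnd channels, rose from 2.06, 5.18, 1.63 and 4.89 CPM to 8.96, 8.28, 10.4 and 6.23 CPM (log2 difference 1.43 ± 0.44, adjusted p = 0.0358), and leaving out mouse 2 or 8 ended that call. Kcnab2, a beta subunit of the Kcna channels, fell from 6.94, 8.76, 17.7 and 8.19 CPM to 2.31, 3.75, 6.19 and 4.08 CPM, without overlap (log2 difference -1.33 ± 0.24, adjusted p = 0.00281). Of the Kcna genes tested, Kcna2 and Kcna5 rose and Kcna3 did not pass.

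Per kilobase of exon, which makes levels of different genes roughly comparable, the leading members were not in the same order in the fractions. The length used is that of all annotated exons of a gene together. A gene whose transcripts here use only part of them appears lower than it is. In CD249- cells the order was Kcnq1 at 18 ± 4.43 CPM per kilobase, Kcne4 at 12.3 ± 6.24, Kcnj8 at 8.82 ± 2.62, Kcna3 at 8.33 ± 2.38, Kcnk6 at 7.80 ± 1.72, Kcnk5 at 6.53 ± 3.18 and Kcnh1 at 4.79 ± 1.17 (SD, n = 4). Neighbours in this order lay within the larger of their SDs of each other. In CD249+ cells it was Kcne4 at 52.1 ± 20.3 CPM per kilobase, Kcnj8 at 37.4 ± 8.67, Kcns3 at 18.3 ± 2.46, Kcnk3 at 16.8 ± 2.05, Kcna3 at 10.6 ± 1.41, Kcnk13 at 7.31 ± 3.01 and Kcnq1 at 6.61 ± 2.59. There the levels of Kcne4 and Kcnj8, of Kcns3 and Kcnk3 and of Kcnk13 and Kcnq1 lay within the larger SD, while the gaps from Kcnj8 to Kcns3, from Kcnk3 to Kcna3 and from Kcna3 to Kcnk13 were larger than either SD. Kcnq1 went from rank 1 to rank 7. Members with a mean of at least 10 CPM numbered 8 in CD249- and 15 in CD249+ cells.

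**Figure D3:**
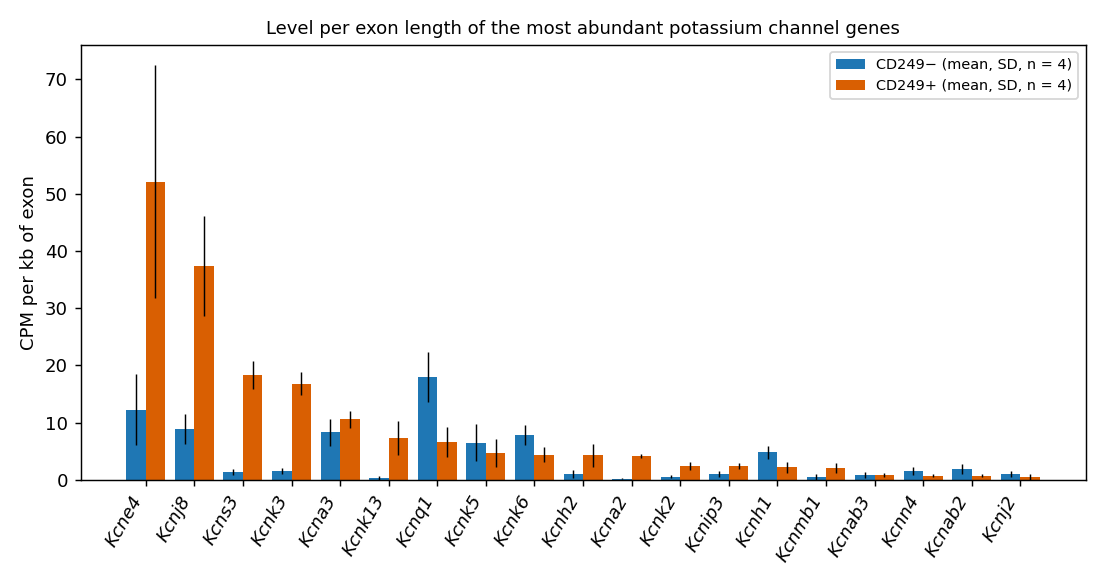
Mean CPM per kilobase of exon of the most abundant potassium channel genes in CD249- (blue) and CD249+ (orange) cells, with bars for the SD over 4 mice. Kcne4 and Kcnj8 are tallest in CD249+ cells, at 52.1 and 37.4, and Kcnq1 is tallest in CD249- cells, at 18.

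The 24 tested members that were not called are mostly scarce genes: 19 of them had under 5 CPM and 13 under 2 CPM in both fractions. Their log2 differences were positive for 18 and negative for 6. Kcnt2 (-0.96, adjusted p = 0.158) and Kcnd1 (0.91, adjusted p = 0.166) were examples, and a p above the threshold does not show that their levels were alike. Of the 45 untested members, 39 stayed under a mean of 0.5 CPM in both fractions. A count of 0 allows a level of up to 0.094 to 0.130 CPM, depending on the library (3 counts, counting error only). That level was taken from the unscaled library total, so it is approximate on the scale of the other CPM values. Of the other 6, 5 had means of at most 0.83 CPM in either fraction, among them Kcnj5, with 3.15 CPM in the CD249+ library of mouse 8. The highest was Kcne2, a subunit found in secretory epithelium, with 0.296, 0.142, 0.743 and 9.80 CPM in CD249+ cells. Its CD249- values were 0, 0, 0.375 and 0.270 CPM, below the CD249+ value in 4 of 4 mice. Some of these values lie near or under the level that 3 counts give. Its CD249+ mean rests mostly on the mouse 10 library, which also held the high Sftpc. Whether the Kcne2 level is related to that was not tested.

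Across all genes tested, 19.3% were called higher and 17.1% lower, with a median log2 difference of -0.02, to be set beside each list here. Of the genes that work with these channels, the voltage-gated calcium channels had 8 of 13 tested members higher, none lower and a median of 1.77. Cacna1d (4.28, adjusted p = 1.44e-06) and Cacna1c (2.25, adjusted p = 3.23e-05), pore subunits of L-type channels, were 2 of them. Of the nitric oxide, cyclic GMP and cyclic AMP signalling genes, 8 of 15 rose, 2 fell and the median was 1.46. The natriuretic peptide receptors were split, with Npr2 higher (2.33, adjusted p = 9.84e-07) and Npr1 lower (-1.22, adjusted p = 2.55e-05). The sodium-potassium pump list, which restores the gradient the channels use, had 5 higher and 3 lower of 11 tested (median 0.30), with the beta subunit gene Atp1b2 higher (2.53, adjusted p = 1.65e-05). Potassium chloride cotransport genes showed 3 higher and 4 lower of 11 (median -0.15), with the cotransporter Slc12a7 lower (-1.0, adjusted p = 7.77e-05). None of the 3 tested partners of KV4, BK and other channels was called.

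**Figure D4:**
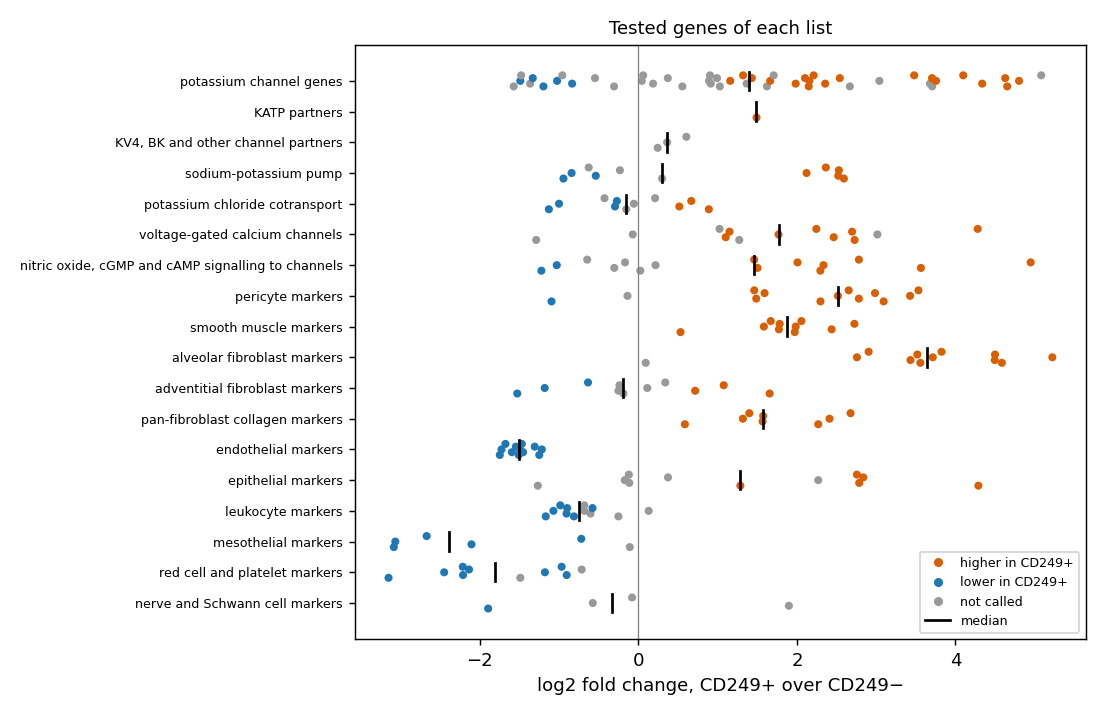
Log2 fold change of CD249+ over CD249- cells for every tested gene of each list shown, 1 point per gene, orange if higher, blue if lower and grey if not called, with a line at the list's median. The potassium channel genes, with a median of 1.40, lie on both sides of 0, all endothelial markers lie below 0, and the alveolar fibroblast markers have a median of 3.64.

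Of the 24 called members, 17 were called in each of the 10 other settings tried, 13 higher and 4 lower, and the remaining 7 are Kcng1, Kcnk1, Kcnn4, Kcnmb1, Kcnip3, Kcna5 and Kcnn1. The libraries do not mark strand, and 28 of the 93 members share exon bases with another gene in GENCODE M21. Which gene the reads over those bases came from cannot be told. Among the called genes described, Kcnq1 shares 121 bases with the antisense gene Kcnq1ot1, Kcnk3 shares 229 with Gm9899, Kcnk2 shares 604 with A430027H14Rik, Kcnma1 shares 1016 with 4930519K11Rik, Kcnq5 shares 237 with Gm26580, Kcnk1 shares 179 with Gm45875 and Kcnn1 shares 132 with A230052G05Rik, all on the opposite strand, and Kcnab2 shares 125 with Gm16334 on its own strand. Of the genes named here as sharing bases with called members, only Gm26580 and A230052G05Rik are in the count table. Of the members not called, Kcnj13 shares 623 bases with Gigyf2, Kcnj15 shares 333 with Gm49643 and Kcnt2 shares 102 with 4930590L20Rik. Each of these other genes lies on the opposite strand, and only Gigyf2 is in the count table.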

How the data were processed

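Per the labels' protocols, 10 ng of RNA was primed with oligo(dT), amplified with SMART-Seq V4, tagmented with Nextera XT and read once over 75 bp. The authors deposited expected counts (estimated counts that need not be whole, here 12.0% of values) for 25509 genes and 92 spike-in entries, which are all 0 and were left out. The submitters' processing notes list STAR 2.6.1, RSEM 1.2.28, bcl2fastq 2.20, R 3.6.3 and DESeq2 1.26.0 without their roles. They name a human build for mouse identifiers, and which build the reads were aligned to is therefore unknown here. Coordinates and coding sequences come from GENCODE M21 (GRCm38) by Ensembl identifier, which found 93 of 93 members, 57 with the same version.

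Counts were rounded, genes kept by filterByExpr (14524 of 18552 with a count after rounding) and libraries scaled by TMM. Fractions were compared in R 4.3.3 with the two-sided quasi-likelihood test of edgeR 4.0.16, with mouse as a block and Benjamini-Hochberg adjustment, called under 0.05. An SE is the log2 difference divided by the square root of F. The mouse was taken as a pairing because both fractions came from one lung. Deviations from group means correlated at 0.132 to 0.285 within a mouse and -0.212 to 0.0515 between mice. The deviations of a gene cancel out within each fraction, so positive values within a mouse push those between mice down. Their contrast is therefore partly built in. An earlier description of these data used the fit without the block, which is an alternative here, with 4468 genes called against 5298. Other alternatives were RLE scaling, library size only, no filter, DESeq2 1.42.0, limma-voom (limma 3.58.1) and leaving out each mouse. On simulated counts for 14524 genes, the fit recovered 61% of 100 genes changed by a log2 of 1 and 82% of 100 changed by 2, and called 5 unchanged genes. Far fewer genes were changed there than the 5298 called in the data. The adjustment depends on that share, so these rates need not hold for the real comparison.

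The members, lists and tests were chosen with earlier results of these data known. Every tested member may be named; values per library are given for Kcnj8, Kcnk3 and called members with at least 5 CPM in the higher fraction. Other members shown with such values, and the partner and marker genes named beyond up to 4 called ones with the smallest p per list, were chosen after their values were seen. Amplified reads were not collapsed by molecular identifiers, so precision from depth covers counting error only. A few genes and sequences are not reported here. Close paralogs can share reads that the estimation divides.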

Additional observations from a re-analysis of the deposited data

Results flagged for a closer look

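In 12 of 96 groups of 4 libraries (each tested member in each fraction), 1 library stood apart from the other 3. For normally distributed values the rule used would flag about 1 in 20 groups. Counts near 0 are not distributed in that way, so that rate does not apply to the scarce genes among them. In the CD249+ library of mouse 10, which also held the high Sftpc level, Kcnk1 was at 4.18 CPM (others 0.389 to 0.889) and Kcnj2 at 7.26 CPM (0.956 to 1.38). In the CD249- library of mouse 2, Kcnk5 was at 38.3 CPM (14.6 to 18.5), Kcng1 at 1.43 CPM (0.0834 to 0.245), Kcnv2 at 1.13 CPM (all others 0) and Kcnn2 at 0.531 CPM (0 to 0.0600). Kcnab2 was at 17.7 CPM in CD249- cells of mouse 8 (6.94 to 8.76), and Kcnj14 at 0.330 CPM in those of mouse 10 (all others 0). In the CD249+ library of mouse 7, Kcna3 was low at 16.1 CPM (21.3 to 21.6) and Kcnc2 high at 1.70 CPM (0.0988 to 0.212). Kcne3 was low in CD249+ cells of mouse 2, at 0.329 CPM (0.617 to 0.637). Their source was not tested.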

How the results depend on the processing

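Under the 10 other settings, 15 to 22 members were called higher and 4 to 6 lower. Without the mouse block 16 rose and 4 fell, the replicate block adding Kcnn4, Kcnmb1, Kcna5 and Kcnn1 to the calls. The median log2 difference of tested members, 1.40, was 1.26 without the block, 1.30 with library size only, 0.93 with no low-count filter, 1.24 with limma-voom and 1.06 to 1.76 on leaving out each mouse; without the filter 74 members enter. Library size only moved the median of all genes to -0.12 and called 18 members higher and 6 lower. Calls gained elsewhere were those of Kcnj12, Kcnn2, Kcnk5, Kcnj2 and Kcnv2, and of Kcne2, which is tested only without the filter (3.70, adjusted p = 0.0337). Sign changes occurred for 6 uncalled genes only. Kcng4 was 0.0526 without the block and -3.16 to 0.0828 on leaving out each mouse. Over the same leave-outs Kcnn3 ran from -0.0012 to 0.33, Kcnh4 from -0.0185 to 2.04 and Kcne3 from -0.66 to 0.10. Kcnab3 was -0.0447 without the block, -0.0301 with library size only, -0.0701 with limma-voom and -0.54 to 0.45 on leaving out each mouse. Kcng2 was -0.0475 with library size only, -0.0029 with no filter, -0.0069 with DESeq2 and -0.87 to 0.86 on leaving out each mouse. The causes were not tested. For the 45 members with too few counts to test, no difference was estimated with the filter. Nothing in the labels separates these mice by batch.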
